A study of Homo sapiens with 2 samples.

Results

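The clustered protocadherins are a family of cell adhesion genes that lie next to each other in 3 clusters, named alpha, beta and gamma, on the long arm of chromosome 5. The genes were chosen by symbol, taking every gene named PCDHA, PCDHB or PCDHG with an isoform number or letter. Of the 31845 genes in the table, 44 met this rule, 4 in the alpha, 18 in the beta and 22 in the gamma cluster, and 5 of them are annotated as pseudogenes. The gene name table lists 59 such symbols, 16 alpha, 19 beta and 24 gamma. Those without a matching identifier, among them most alpha symbols, are not analysed here. The genes were proposed as a set with results of this comparison known, among them the low beta values of the resistant library, so their values are given as a description, with no test.

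RNA was sequenced from 2 libraries, 1 from an olaparib-resistant derivative of Capan-1 and 1 from parental Capan-1 cells. Capan-1 is a human cell line from a pancreatic adenocarcinoma that carries a BRCA2 mutation, although the cell type field of the labels names breast cancer, and both libraries come from it. Olaparib inhibits PARP enzymes, and the resistant cells had been exposed to it in rising steps from 15 nM to 128 uM. Whether the derivative was 1 clone or a mixed population is not given in the sources used here. The counts headed with the name of the line were taken as parental and the remaining ones as resistant, an assignment on which every direction below rests. There was no replicate, so each difference describes these 2 libraries, and no p-value is given.

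Apart from the pseudogenes, the genes of the clusters encode transmembrane proteins. The cadherin repeats of many of them bind the same isoform on a neighbouring cell. In neurons each cell switches on a few isoforms by choosing among promoters, and the resulting combination marks the cell as itself. In the alpha and gamma clusters a large first exon, which encodes the extracellular and transmembrane parts, is spliced to a set of short exons shared by the whole cluster, whereas beta genes lack shared exons and end in their own coding sequence. The transcription factor CTCF and cohesin bring distant enhancers to the chosen promoter, and methylation of CpG sites in a promoter accompanies its silence. The locus is also known for CpG methylation over long stretches in several kinds of tumour, which was not measured in these libraries.

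Promoter letters are shown first, since they set the clusters apart without any use of the counts. RefSeq promoter windows (GRCh38.p14, 250 bases before to 50 after the annotated gene start, all on the plus strand here) were matched by symbol for 13 beta, 19 gamma and 3 alpha genes. The letters GGTGGCGCT, noticed on inspecting these windows and then searched on both strands, were in 12 of 13 beta windows and in 0 of 23 gamma windows, against 0.501% of all 35116 windows. They contain CGCT, the core of a short element known from protocadherin promoters. The beta excerpts below are 30 bases each, 5′ to 3′, with GGTGGCGCT in capitals. In PCDHB1, which lacks it, the capitals mark CGCT.
PCDHB2 (chr5:141094544-141094573): aagagacgcggGGTGGCGCTgcagccttag
PCDHB3 (chr5:141100393-141100422): agcgaacgcatGGTGGCGCTgttgactaag
PCDHB4 (chr5:141121723-141121752): tcaagacgcagGGTGGCGCTgcaggctaag
PCDHB5 (chr5:141135179-141135208): ttaggacgcctGGTGGCGCTgcaggctaag
PCDHB7 (chr5:141172566-141172595): acaaaacgcaaGGTGGCGCTgctggctaaa
PCDHB8 (chr5:141177777-141177806): tgaggacccgtGGTGGCGCTgcaggataag
PCDHB9 (chr5:141187074-141187103): ggaagccacaaGGTGGCGCTgcagactgaa
PCDHB10 (chr5:141192299-141192328): ggaggccacacGGTGGCGCTgcaggctaaa
PCDHB12 (chr5:141208643-141208672): tggagacgcgtGGTGGCGCTgcaggataat
PCDHB13 (chr5:141213865-141213894): tgaggacgcgtGGTGGCGCTgcaggataag
PCDHB14 (chr5:141223263-141223292): tggagacacatGGTGGCGCTacaggataag
PCDHB15 (chr5:141245314-141245343): agacaacgcatGGTGGCGCTgcaggctaag
PCDHB1 (chr5:141051274-141051303): gactggggagttgagtCGCTcaatgcaaat
The block lay at a similar place in most of these windows. Its CGCT began a median of 61 bases before the annotated start, from 79 bases before it in PCDHB4 to 3 bases after it in PCDHB8. Windows with the block belonged to genes with many counts, such as PCDHB2, and to genes near 0, such as PCDHB15.

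Gamma windows held a different block. CGCTGT, which was not among the planned letters, was searched on both strands. It was in 19 of 23 gamma windows (16 of 19 genes), 2 of 3 alpha windows and 1 of 13 beta windows, against 11.2% of all windows. On the plus strand, that of the genes, it was in 18 gamma windows and 1 alpha window. The excerpts show some of the gamma genes with the block and 1 alpha gene, with CGCTGT in capitals. The windows of PCDHGB3, PCDHGB7 and PCDHGA11, which are also described below, lack it.
PCDHGA1 (chr5:141330403-141330432): ttaggactgtgggcgcCGCTGTtcactaat
PCDHGB1 (chr5:141350025-141350054): gacaacctctgggcgcCGCTGTcgaccaaa
PCDHGA4 (chr5:141354960-141354989): ttaagactctgggtgtCGCTGTtcaccaat
PCDHGB2 (chr5:141359921-141359950): gaaaacctctgagcgtCGCTGTtggtcaaa
PCDHGA5 (chr5:141364107-141364136): ttaggactctgagtgtCGCTGTtgaccaaa
PCDHGC4 (chr5:141484952-141484981): ggctgagcccgggagcCGCTGTctgccaat
PCDHA1 (chr5:140786086-140786115): attggccacatgatgtCGCTGTacaccaca
CGCT alone, searched on both strands, was in 13 of 13 beta and 23 of 23 gamma windows. It is common, however, and was in 70.0% of all windows. A core of the CTCF motif, also searched on both strands, was in 0 of the member windows and in 10.2% of all windows. The pattern searched fixed its last base as C, so a site ending in GGCGCT could not match it. The 0 therefore does not show that these windows lack CTCF sites. By median, the member windows were poorer in GC, with 39.7% in beta, 44.3% in gamma and 36.0% in alpha windows, against 58.7% over all windows. Some gamma windows were above that value, with 59% in PCDHGC3, 60.7% and 62.3% in PCDHGC4 and 65% in 1 window of PCDHGB6. The median number of CpG sites was 7, 8 and 7 in beta, gamma and alpha windows, against 14 over all windows. Gamma windows ran from 2 to 25 sites.

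Both whole windows below are printed because PCDHB8 and PCDHB13 are the closest pair of beta promoters, with 243 of 300 bases (81.0%) identical after global alignment. Among all 78 pairs the next closest had 58.7%, and the median was 55.0%. Capitals mark CGCT on either strand.
PCDHB8 (chr5:141177540-141177839): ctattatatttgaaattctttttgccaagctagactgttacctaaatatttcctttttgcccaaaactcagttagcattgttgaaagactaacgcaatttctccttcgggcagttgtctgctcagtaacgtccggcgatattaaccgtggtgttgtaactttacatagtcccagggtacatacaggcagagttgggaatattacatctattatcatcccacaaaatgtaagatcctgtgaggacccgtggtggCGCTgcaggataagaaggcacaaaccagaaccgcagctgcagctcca
PCDHB13 (chr5:141213669-141213968): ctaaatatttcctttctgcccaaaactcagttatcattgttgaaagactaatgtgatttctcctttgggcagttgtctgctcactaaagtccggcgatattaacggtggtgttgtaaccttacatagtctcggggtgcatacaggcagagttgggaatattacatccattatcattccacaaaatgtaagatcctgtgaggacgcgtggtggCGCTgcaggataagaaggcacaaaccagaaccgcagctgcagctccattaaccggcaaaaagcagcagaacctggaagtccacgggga
The likeness of this pair extends into the transcripts. Of the 50-base stretches of PCDHB8 transcripts in GENCODE release 29, 33.0% also occur in PCDHB13, and 49.3% occur in some other gene. Reads of both genes can therefore be mistaken for each other.

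Sharing of sequence differed by cluster and sets how far a value belongs to 1 gene. The median share of 50-base stretches found in another gene was 54.9% for alpha, 14.5% for beta and 42.9% for gamma members. With 100-base stretches the medians were 51.4%, 6.15% and 41.9%. At least 1 exon was shared with another gene of the family by 3 of 4 alpha and 21 of 22 gamma members, and by 0 of 18 beta members. A single gamma exon belonged to 22 genes. A read from such an exon cannot be traced to an isoform, so gamma and alpha members are best compared as sums, while most of a beta transcript is its own. The spans of 3 of 4 alpha, 18 of 18 beta and 18 of 22 gamma members also overlap an antisense gene in GENCODE. Since whether counting used strand is not given in the sources used here, their reads and antisense reads cannot be told apart.

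The libraries were alike in depth, with 34507480 counts in the resistant and 34572931 in the parental library. BRCA2, the gene in the series title, had 7585 resistant and 1381 parental counts. Epithelial markers were strong in both, as 9 of 10 reached 50 counts and their sums were 197809 resistant and 139876 parental counts. Of 14 neuronal markers, 7 were in the table, with summed counts of 273 in the resistant and 169 in the parental library, mostly TUBB3 at 239 resistant and 84 parental. SYP and SYT1, of synaptic vesicles, were at 0 in the resistant library and at 7 and 6 in the parental one. RBFOX3, ELAVL4 and GAP43 were at 2, 3 and 2 in the resistant library and at 0 in the parental one. MAP2, of neuronal dendrites, had 27 resistant and 72 parental counts. Pancreatic duct markers summed to 60113 resistant and 57811 parental counts over 5 of 6 listed genes, mostly KRT19 with 51896 resistant and 40864 parental counts. The median log2 ratio of these 5 was -0.74, and CFTR and MUC1 were 3.47-fold and 2.54-fold lower in the resistant library. Glial markers summed to 547 resistant and 496 parental over 3 of 6, and fibroblast markers to 583 resistant and 133 parental over 6 of 8. LUM made up most of the resistant fibroblast sum, with 523 resistant and 35 parental counts, COL1A1 went the other way with 38 resistant and 97 parental counts, and DCN, COL3A1 and FAP were at 0 in the parental library alone. Endothelial markers held 3 resistant and 3 parental counts over 2 of 4 genes, and leukocyte markers 608 resistant and 368 parental counts over 4 of 4. The part of such cells in the results was not tested.

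All clustered protocadherins were expressed at a low level, and the family was lower in the resistant library. Its members held 490 counts in the resistant and 1275 in the parental library, which is 2.58-fold lower after scaling (95% counting interval 2.33 to 2.87). This interval, like those below, is exact and covers counting error only. Scaling used TMM factors, which correct for a few genes taking many reads. In bulk cells, fewer expressing cells and less RNA per cell cannot be told apart.

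The beta cluster was lower by more than the others. Its 18 members summed to 147 counts (Poisson interval 124 to 173) in the resistant library and to 804 (749 to 862) in the parental library, 5.43-fold lower (4.55 to 6.52). The gamma cluster held 333 resistant (298 to 371) and 458 parental counts (417 to 502), 1.37-fold lower (1.18 to 1.58). The alpha cluster, of which only 4 of 16 symbols were matched, held 10 resistant (4.80 to 18.4) and 13 parental counts (6.92 to 22.2). Its ratio was 0.774, with an interval of 0.304 to 1.91 that includes equal levels. The beta ratio was 0.252 times the gamma ratio (exact conditional interval 0.199 to 0.317) and 0.238 times the alpha ratio (0.0945 to 0.619). The gamma ratio was 0.945 times the alpha ratio (0.378 to 2.44), which includes equal ratios. In deposited FPKM, which is a level per length, the beta sum was 0.601 in the resistant and 3.10 in the parental library, the gamma sum was 0.918 in the resistant and 1.16 in the parental library, and the alpha sum was 0.019 in the resistant and 0.029 in the parental library.

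The cluster with the most counts was gamma in the resistant and beta in the parental library. Gamma members held 68.0% (63.6 to 72.1) of the family's counts in the resistant library and 35.9% (33.3 to 38.6) in the parental library. Beta members held 30.0% (26.0 to 34.3) in the resistant and 63.1% (60.3 to 65.7) in the parental library. Alpha members held 2.04% in the resistant and 1.02% in the parental library, with overlapping intervals.

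**Figure D1:**
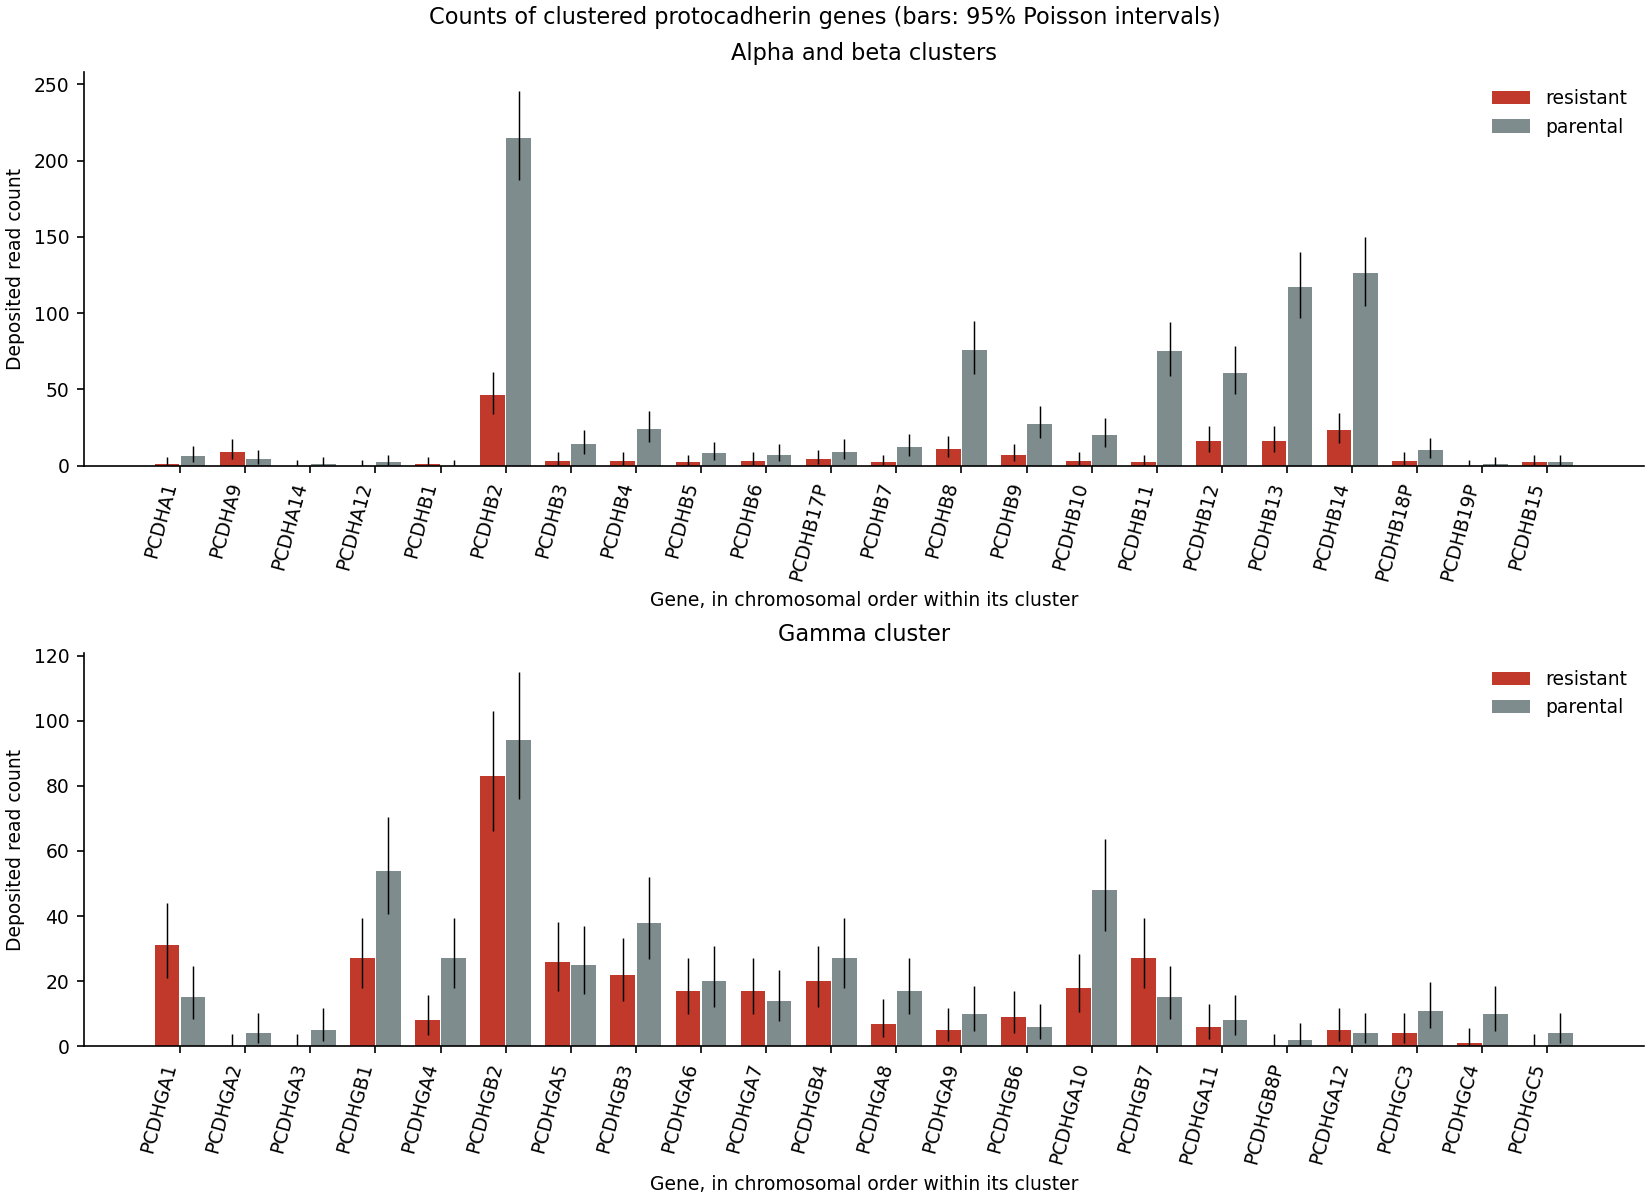
Deposited read counts (y axis, bars from 0) of all 44 members in chromosomal order, with the resistant library in red to the left of the parental library in grey, and 95% Poisson intervals as lines. Parental PCDHB2 stands highest at 215 counts, and the 6 beta genes above 50 parental counts are each far lower in the resistant library, while most gamma pairs overlap.

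In the beta cluster, 6 members reached 50 counts in 1 library or both, the minimum used to call a difference. All 6 were at least 2-fold lower in the resistant library and 0 were higher. Over all 15102 genes at this minimum, 8.95% were at least 2-fold lower and 6.00% higher. Among the 4709 genes with 50 to 250 counts, a range chosen after the members were seen, 14.7% were lower and 10.4% higher. The members were proposed partly for these values, and all 6 reached the minimum in the parental library alone, with at most 46 counts in the resistant library. Nothing is therefore read from the count itself.

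PCDHB2 (ENSG00000112852), the first of the tightly packed beta genes, had 46 counts in the resistant and 215 in the parental library, 4.64-fold lower (3.36 to 6.53). It was the most abundant member per length in the parental library, at 0.885 FPKM, above 58.9% of listed genes. In the resistant library it had 0.198 FPKM, above 43.5% of genes.

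Toward the far end of the cluster, 4 neighbours in a row reached 50 counts. PCDHB14 (ENSG00000120327) had 23 resistant and 126 parental counts, 5.44-fold lower (3.47 to 8.90). PCDHB13 (ENSG00000187372) had 16 resistant and 117 parental counts, 7.26-fold lower (4.29 to 13.1). PCDHB12 (ENSG00000120328) had 16 resistant and 61 parental counts, 3.79-fold lower (2.16 to 7.04). The intervals of these 3 genes and PCDHB2 overlap, and their folds were not compared with each other by a test.

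PCDHB11 (ENSG00000197479), the fourth neighbour, had the lowest ratio of the 6, with 2 resistant and 75 parental counts. Its ratio was 0.0268 (0.00319 to 0.100), and its log2 ratio with a prior of 1 count was -4.66. That interval lies below those of PCDHB2, PCDHB12 and PCDHB14 and overlaps those of PCDHB13 (0.0762 to 0.233) and PCDHB8 (0.0698 to 0.276). PCDHB8 (ENSG00000120322) had 11 resistant and 76 parental counts, 6.86-fold lower (3.63 to 14.3), close to the fold of PCDHB13, with which it shares sequence. The 6 log2 ratios ran from -4.66 to -1.86 with a median of -2.53, beside a median of 0.06 over all 15102 genes.

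Of the 12 beta genes below 50 counts, 10 had fewer counts in the resistant library, 1 had more and 1 had as many. Of these, 6 had at least 10 parental counts (PCDHB3, PCDHB4, PCDHB7, PCDHB9, PCDHB10 and the pseudogene PCDHB18P), with 2 to 7 counts in the resistant library. With them, 12 of 12 beta members at 10 counts or more were at least 2-fold lower, and 13.6% of the 20673 genes at that minimum were. The added genes reached 10 counts in the parental library alone, so a minimum of this kind picks genes that are high there, and nothing is read from the 12 either. PCDHB18P had 3 resistant and 10 parental counts, and its counting interval includes equal levels. PCDHB9 had 7 resistant and 27 parental counts, 3.83-fold lower (1.63 to 10.4), and PCDHB4 had 3 resistant and 24 parental counts, a ratio of 0.126 (0.0243 to 0.414). All 12 beta members under 50 counts together held 33 resistant and 134 parental counts, 4.03-fold lower (2.74 to 6.10).

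Beta genes with almost no reads allow no comparison. PCDHB5 had 2 resistant and 8 parental counts, PCDHB6 had 3 resistant and 7 parental and the pseudogene PCDHB17P had 4 resistant and 9 parental. PCDHB15, the last gene of the cluster, had 2 resistant and 2 parental counts, PCDHB1, the most distant from the rest, had 1 resistant and 0 parental, and the pseudogene PCDHB19P had 0 resistant and 1 parental. Each of their intervals includes equal levels. The 3 pseudogenes summed to 7 resistant and 20 parental counts, 2.84-fold lower (1.15 to 7.94), and the 15 coding genes to 140 resistant and 784 parental counts, 5.56-fold lower (4.64 to 6.71).

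**Figure D2:**
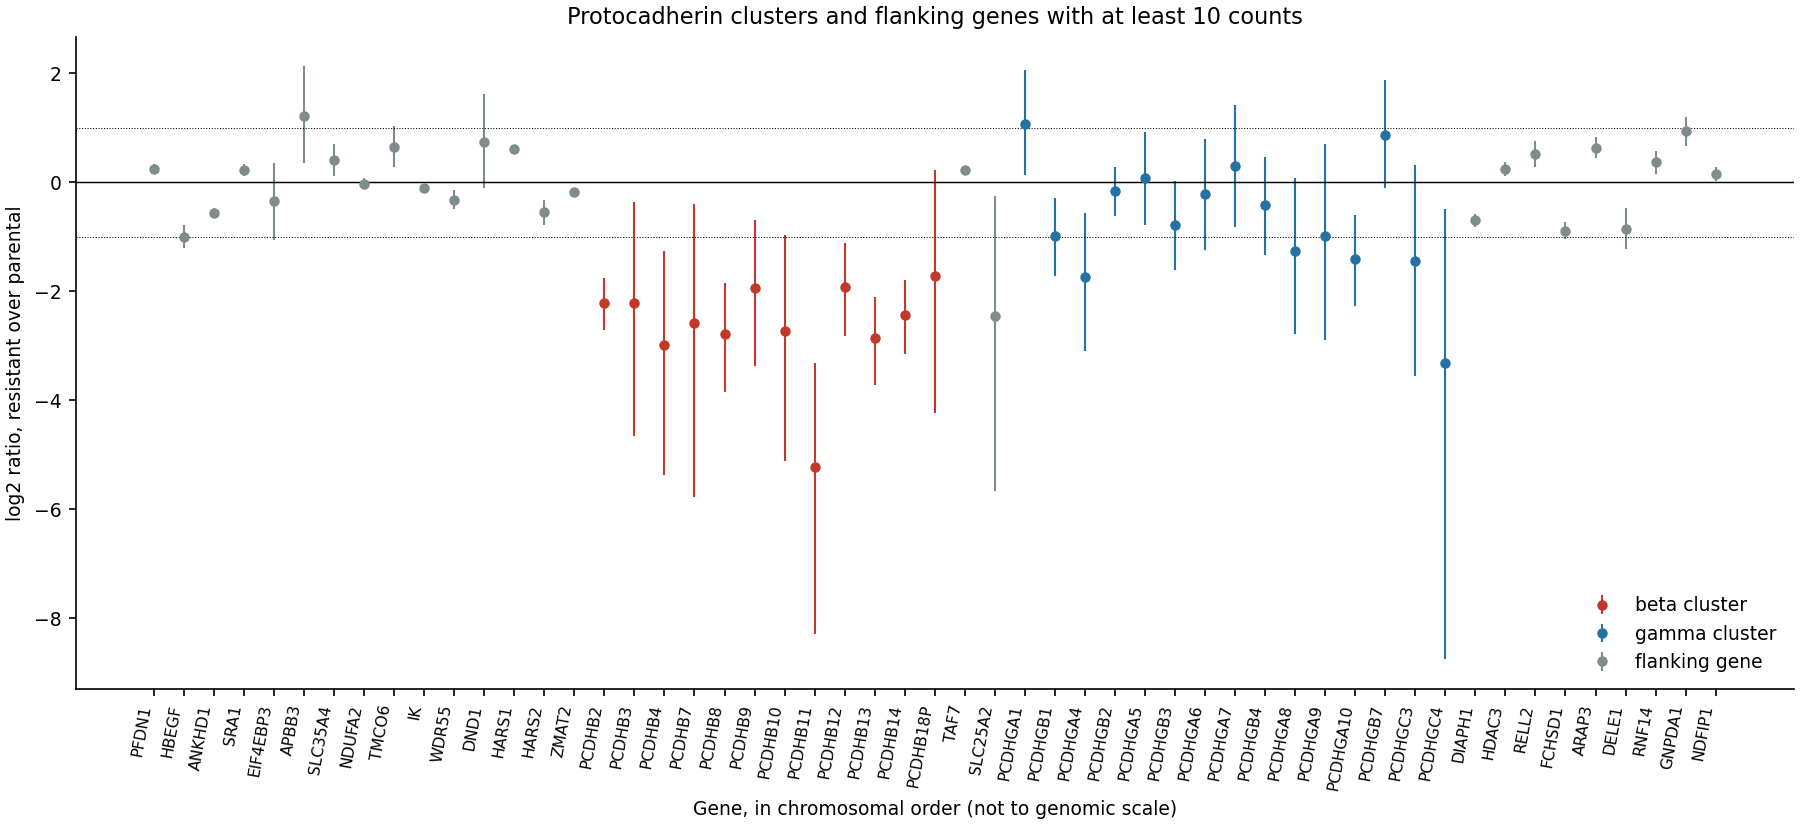
Log2 ratio of scaled counts, resistant over parental (y axis, no prior count), for beta members (red), gamma members (blue) and flanking genes (grey) with at least 10 counts, in chromosomal order on the x axis, not to scale. Lines are 95% exact conditional intervals and dotted lines mark 2-fold. The 12 beta genes all lie below -1, gamma genes lie on both sides of 0, and TAF7 between the clusters sits near 0 at 0.23.

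Among the beta members at 50 counts, PCDHB11 alone had share intervals that did not overlap. These members reached 50 counts in the parental library alone, so nothing is read from this difference. PCDHB2 held 31.3% (23.9 to 39.5) of beta counts in the resistant library and 26.7% (23.7 to 29.9) in the parental library. PCDHB14 held 15.6% of resistant and 15.7% of parental beta counts, PCDHB13 10.9% of resistant and 14.6% of parental, PCDHB12 10.9% of resistant and 7.59% of parental, and PCDHB8 7.48% of resistant and 9.45% of parental ones, each with overlapping intervals. PCDHB11 held 1.36% (0.165 to 4.83) in the resistant library and 9.33% (7.41 to 11.6) in the parental library. The effective number of beta genes, the inverse of the sum of squared shares, was 6.35 in the resistant and 6.93 in the parental library.

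Gamma genes went both ways. Of the 22 members, 16 had fewer and 6 had more counts in the resistant library. The 2 that reached 50 counts lay within 2-fold. PCDHGB2 (ENSG00000253910), the most abundant gamma gene in both libraries, had 83 resistant and 94 parental counts, a ratio of 0.889 (0.654 to 1.21), with 0.212 resistant and 0.230 parental FPKM. PCDHGB1 (ENSG00000254221) had 27 resistant and 54 parental counts, 1.99-fold lower (1.23 to 3.28), just within the 2-fold limit with a log2 ratio of -0.96, while the nearest member past it at 50 counts was PCDHB12 at -1.86. PCDHGA10, with 18 resistant and 48 parental counts, was just under the count minimum and was 2.65-fold lower (1.51 to 4.84).

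Gamma members below 50 counts were described after their values were seen. At 10 counts or more there were 15 gamma members, of which 5 were at least 2-fold lower and 1 was at least 2-fold higher, while 13.6% and 9.55% of all genes at that minimum were. In the resistant library 10 of the 15 reached 10 counts, and in the parental library all 15 did. Lower were PCDHGA4 with 8 resistant and 27 parental counts, PCDHGA8 with 7 resistant and 17 parental, PCDHGA10, PCDHGC3 with 4 resistant and 11 parental and PCDHGC4 with 1 resistant and 10 parental. The intervals of PCDHGA8 and PCDHGC3 include equal levels. The higher gene was PCDHGA1, the first of the cluster, with 31 resistant and 15 parental counts, a ratio of 2.08 (1.09 to 4.15). PCDHGB7 had 27 resistant and 15 parental counts, a ratio of 1.81 whose interval of 0.930 to 3.66 includes equal levels. Intervals also included equal levels for PCDHGA5 with 26 resistant and 25 parental counts, PCDHGB3 with 22 resistant and 38 parental, PCDHGB4 with 20 resistant and 27 parental, PCDHGA6 with 17 resistant and 20 parental, PCDHGA7 with 17 resistant and 14 parental and PCDHGA9 with 5 resistant and 10 parental. Under 10 counts, PCDHGB6 had 9 resistant and 6 parental, PCDHGA11 had 6 resistant and 8 parental, PCDHGA12 had 5 resistant and 4 parental and the pseudogene PCDHGB8P had 0 resistant and 2 parental.

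By subfamily, the A and B types were close to each other and the C type was sparse. The 12 gamma A genes held 140 resistant and 197 parental counts, 1.40-fold lower (1.12 to 1.75). The 7 gamma B genes held 188 resistant and 236 parental counts, 1.25-fold lower (1.03 to 1.52). The 3 C-type genes, which mouse neurons use constitutively, held 5 resistant and 25 parental counts, 4.97-fold lower (1.87 to 16.6), so PCDHGC3, PCDHGC4 and PCDHGC5 supplied few of the family's reads in either library. PCDHGA3, PCDHGA2 and PCDHGC5 were at 0 in the resistant library and at 5, 4 and 4 in the parental one. Their intervals include equal levels. All of these values include reads that may belong to other isoforms that share an exon.

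PCDHGB2 led the gamma cluster in both libraries, and the shares of PCDHGA1 and PCDHGB7 were higher in the resistant library. PCDHGB2 held 24.9% (20.4 to 29.9) of gamma counts in the resistant and 20.5% (16.9 to 24.5) in the parental library. PCDHGA1 held 9.31% (6.41 to 13.0) of resistant and 3.28% (1.84 to 5.34) of parental gamma counts, and PCDHGB7 held 8.11% (5.41 to 11.6) of resistant and 3.28% (1.84 to 5.34) of parental ones. For both, the resistant interval lies above the parental one, but they were picked after the values of all gamma members were seen. Reads from shared exons cannot be assigned to either gene. Resistant counts per unit of FPKM, which rise with the length used, were 211 for PCDHGA1 and 391 for PCDHGB7, so the shares rest on unlike lengths. PCDHGA10 held 5.41% (3.23 to 8.41) of resistant and 10.5% (7.83 to 13.7) of parental gamma counts, whose intervals overlap slightly. The effective number of gamma genes was 9.19 in the resistant and 10.8 in the parental library.

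**Figure D3:**
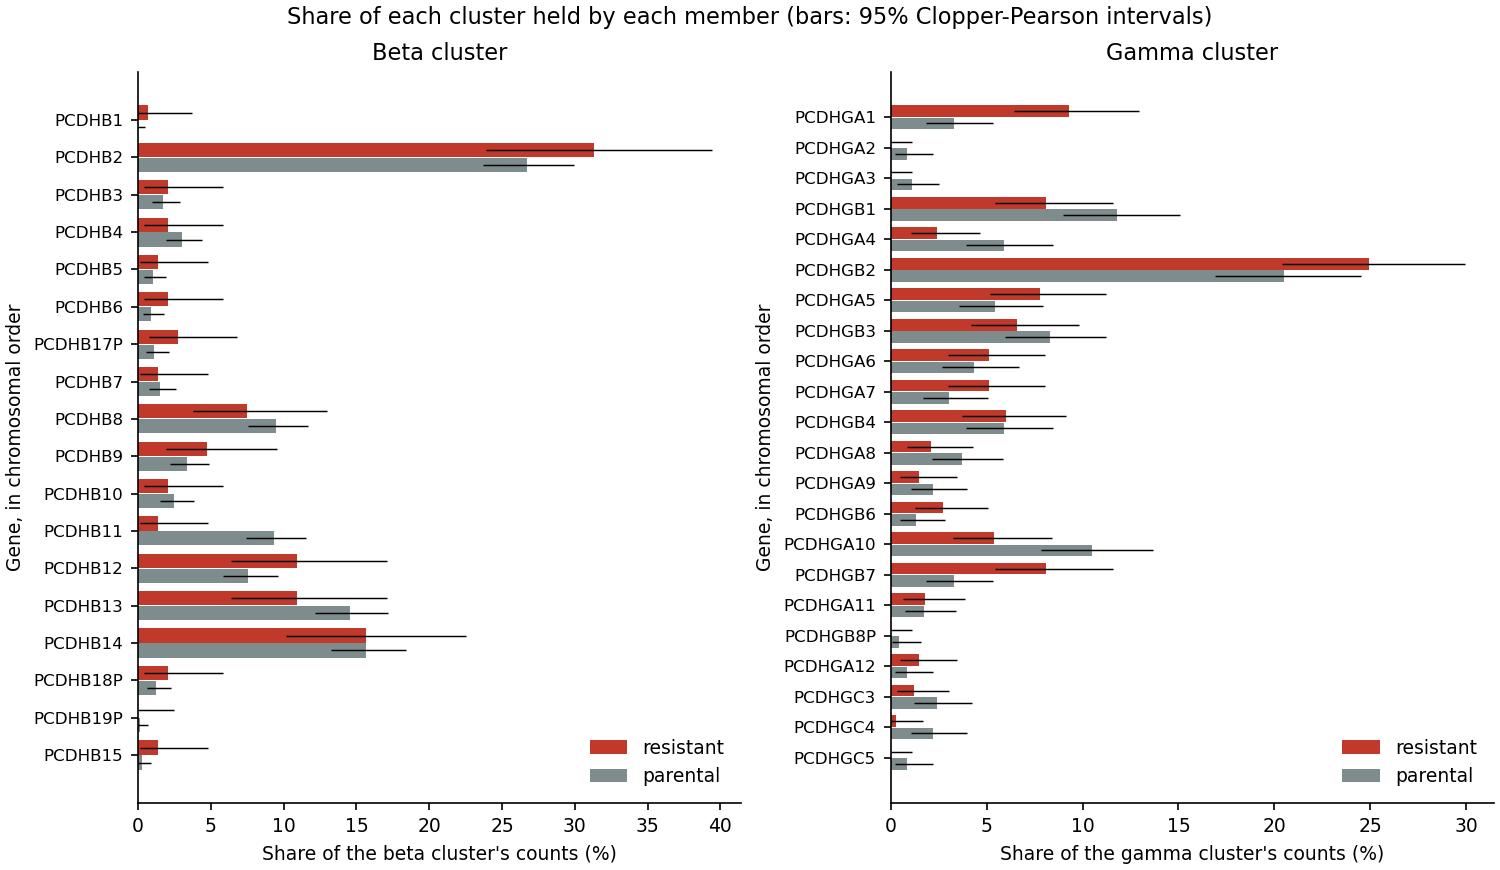
Share of the beta cluster's counts (left) and of the gamma cluster's counts (right) held by each member (x axis, percent), with the resistant library in red above the parental library in grey and 95% Clopper-Pearson intervals as lines. PCDHB2 and PCDHGB2 lead in both libraries, and PCDHB11 is the beta gene with the most unequal shares, 1.36% in the resistant and 9.33% in the parental library.

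Alpha genes were near the limit of detection. PCDHA9 had 9 resistant and 4 parental counts, a ratio of 2.27 (0.632 to 10.1), and PCDHA1 had 1 resistant and 6 parental counts, a ratio of 0.168 (0.00365 to 1.38). PCDHA12 had 0 resistant and 2 parental counts and the pseudogene PCDHA14 had 0 resistant and 1 parental. No alpha member reached 10 counts in either library. Only 4 of 16 alpha symbols matched an identifier, so the alpha sum describes those 4 and not the whole cluster. No difference of that sum from equal levels was detectable at this depth, although its interval excludes a ratio as low as that of the beta sum.

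With the prior of 1 count, flanking genes with 50 counts or more lay within 2-fold. Of 28 flanking genes in the table, 22 reached 50 counts and 0 were at least 2-fold lower or higher. Over all genes at that minimum, 8.95% were lower and 6.00% higher. The 22 had a median log2 ratio of 0.18 and a range of -0.998 to 0.93. The 12 before the alpha cluster had a median of -0.07 and the 9 after the gamma cluster one of 0.25. TAF7, a subunit of the basal transcription factor TFIID that lies between the beta and gamma clusters, had 10559 resistant and 9069 parental counts, a log2 ratio of 0.23. SLC25A2, an ornithine carrier gene beside TAF7, had 2 resistant and 11 parental counts, a ratio of 0.183 (0.0197 to 0.839), close to that of the beta sum. CD14, a gene of the innate immune receptor system before the alpha cluster, had 0 resistant and 7 parental counts. Other flanking genes under 50 counts went the other way. APBB3 had 39 resistant and 17 parental counts, a ratio of 2.31 (1.28 to 4.35). DND1 had 33 resistant and 20 parental counts, and SLC4A9 had 4 resistant and 0 parental. EIF4EBP3 had 32 resistant and 41 parental counts. The intervals of DND1, SLC4A9 and EIF4EBP3 include equal levels. The flanking genes farthest from 0 were HBEGF, a growth factor gene with 272 resistant and 548 parental counts and a log2 ratio of -0.998, and GNPDA1 with 348 resistant and 184 parental counts and 0.93. HBEGF lay almost at the 2-fold limit. Without the prior its log2 ratio was -1.001, just past the limit. With the prior it passed the limit under median of ratios and total count scaling.

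**Figure D4:**
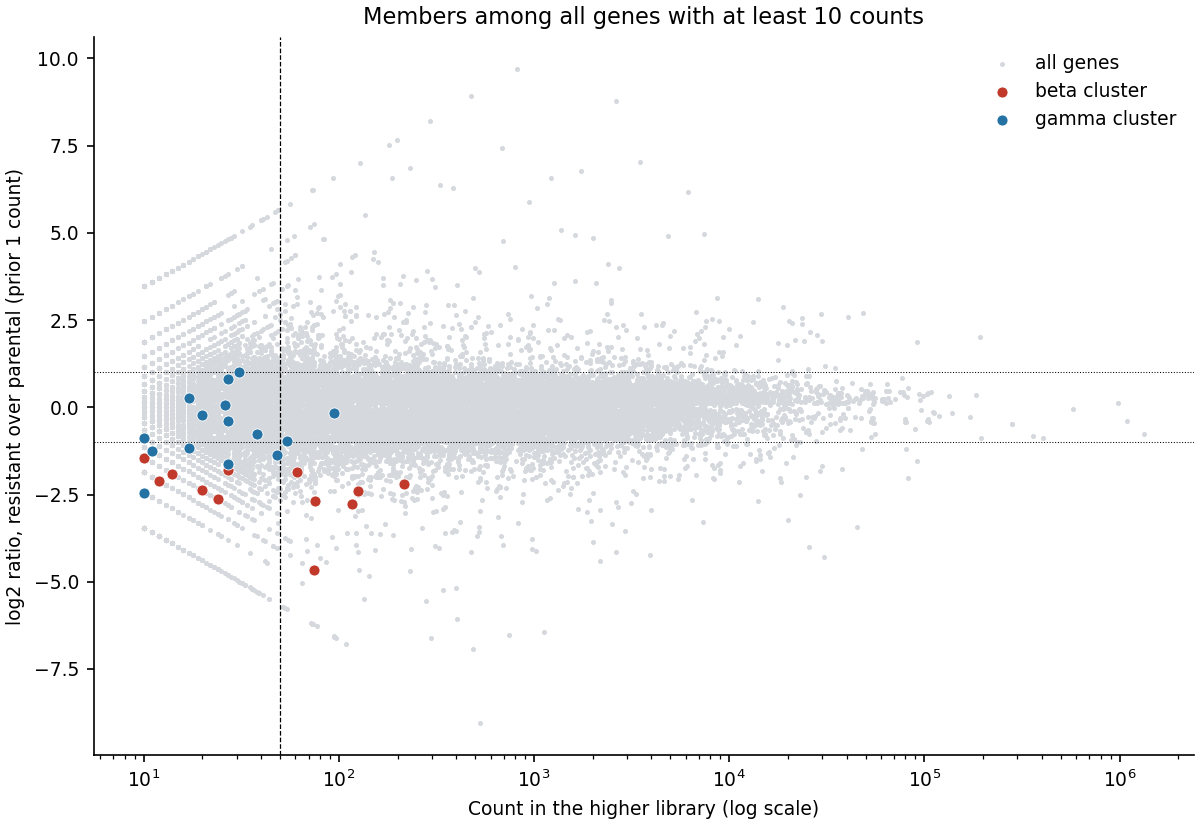
Log2 ratio of resistant over parental with a prior of 1 count (y axis) against the count in the higher library (x axis, log scale) for the 20673 genes with at least 10 counts (light grey), with beta members in red and gamma members in blue. The dashed line marks 50 counts and dotted lines mark 2-fold. The beta members all lie below -1, and the gamma members lie on both sides of 0.

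Among protocadherins and related cadherins outside the clusters, 1 of 8 genes with 50 counts or more was at least 2-fold lower and 1 higher. Their median log2 ratio was -0.38. Over all genes at that minimum, 8.95% were lower and 6.00% higher. PCDH7, a protocadherin of the delta group, had 397 resistant and 2639 parental counts, 6.60-fold lower (5.94 to 7.36). CDHR5, which links the microvilli of gut cells, had 105 resistant and 25 parental counts, 4.23-fold higher (2.71 to 6.83). PCDH1, which lies farther along the same chromosome arm, had 1736 resistant and 2251 parental counts. Of 18 classical and related cadherins in the table, 7 reached 50 counts. Of these, 0 were lower and 2 higher, where 8.95% and 6.00% of all genes were. The higher ones were CDH17, an intestinal cadherin with 6138 resistant and 85 parental counts, and CDH2 with 2866 resistant and 559 parental. CDH2 is the neuronal and mesenchymal N-cadherin. CDH12, just under the minimum with 1 resistant and 43 parental counts, was 42.7-fold lower (7.27 to 1726). Other genes of these lists under the minimum went both ways. FAT3 had 33 resistant and 5 parental counts, a ratio of 6.64 (2.58 to 21.8). CDH18 had 7 resistant and 0 parental counts, and DCHS1 had 0 resistant and 8 parental.

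Genes whose products act at protocadherin promoters were mostly within 2-fold. Of 15 CTCF and cohesin genes, 12 were within 2-fold, 2 lower and 1 higher, with a median log2 ratio of 0.23, where 8.95% of all genes were lower and 6.00% higher. CTCF itself had 3944 resistant and 3335 parental counts, a log2 ratio of 0.25. MAU2, part of the cohesin loader, had 76 resistant and 165 parental counts, 2.16-fold lower (1.63 to 2.87), and HDAC8, the SMC3 deacetylase, 32 resistant and 74 parental counts, 2.30-fold lower (1.498 to 3.60). PDS5B, a cohesin regulator that neighbours BRCA2, had 19816 resistant and 5812 parental counts, 3.43-fold higher. All 20 measured genes of silencing and DNA methylation lay within 2-fold, with a median of -0.20. The farthest were TET3, which oxidises methylcytosine, with 29 resistant and 58 parental counts and a log2 ratio of -0.97, and DNMT3A, a methyltransferase, with 360 resistant and 687 parental counts and -0.92. SMCHD1, which silences the clusters in mice, had 1229 resistant and 1495 parental counts, a log2 ratio of -0.27, and DNMT3B had 815 resistant and 483 parental, one of 0.76.

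Of 22 genes for processing and signalling of protocadherins, 18 lay within 2-fold, 2 were lower and 2 higher, near the shares over all genes of 8.95% and 6.00%, and the median was -0.28. PTK2B, a kinase that protocadherin tails bind, had 429 resistant and 967 parental counts, 2.24-fold lower (1.997 to 2.51). CYFIP2, a subunit of the actin-regulating WAVE complex, had 15 resistant and 55 parental counts, 3.64-fold lower (2.03 to 6.94). WASF3, another WAVE subunit, had 1929 resistant and 422 parental counts, 4.60-fold higher (4.14 to 5.12), and FYN, a Src family kinase, 447 resistant and 111 parental counts, 4.05-fold higher (3.29 to 5.04).

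**Figure D5:**
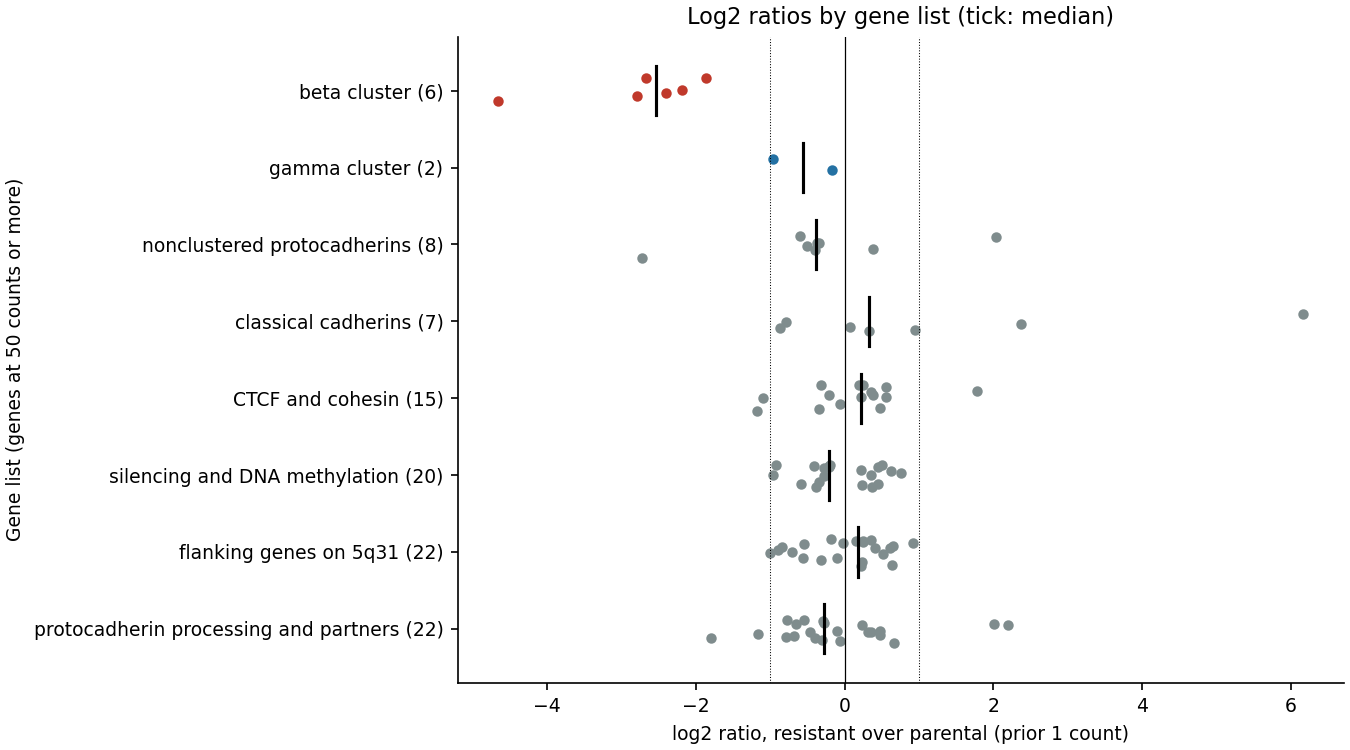
Log2 ratio of resistant over parental with a prior of 1 count (x axis) for each gene with at least 50 counts, by gene list (y axis, number of genes in brackets). Ticks are medians and dotted lines mark 2-fold. The 6 beta genes all lie at or below -1.86 with a median of -2.53, the 2 gamma genes at -0.96 and -0.17, and the medians of the other lists between -0.38 and 0.32.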

How the data were processed

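The authors deposited whole-number read counts without normalization and FPKM values for each gene, per the file headers. The submitters' processing notes list RSEM 1.2.3 and hg19 without saying what each was used for. Strand-specific ScriptSeq libraries were made from total RNA, per the labels' protocols. Columns with the line's name were taken as parental and the others as resistant.

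Symbols came from a table of gene names, which matched 29536 identifiers. Unnamed identifiers held 7.61% of resistant and 9.58% of parental counts. TMM factors came from edgeR 4.0.16 in R 4.3.3. Log2 ratios used a prior of 1 count, and a gene was called at 2-fold with 50 counts in the higher library. Ratios are printed without the prior and with exact conditional 95% intervals, which cover counting error only, and reads copied by PCR are not independent molecules. With 1 library per group no test was run. Python 3.11.15 with scipy 1.17.1 was used, and the calculations were tested on simulated data.

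GENCODE release 29 and RefSeq describe another build than hg19 and served for gene order, sequence sharing and promoters. The name rule covered each member at 50 counts, up to 4 genes per list past 2-fold, or otherwise the 2 farthest. Members and lists were chosen with earlier results of these data known, and other genes, such as CTCF, after their values were seen.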

Additional observations from a re-analysis of the deposited data

How the results depend on the processing

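No paired analysis was possible because each group has 1 library, and no library could be left out. The summed beta, gamma and alpha log2 ratios stayed within their counting intervals under 3 other scalings, the deposited FPKM values, and coding members only. They also did so without PCDHB2 for beta (-2.53) and without PCDHGB2 for gamma (-0.53), both added after seeing the data. Among 144 values of 24 named genes, 0 changed sign and 2, both of HBEGF, crossed 2-fold. The largest shift of the all-gene median by a scaling was 0.07.

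The count minimum mattered. The beta median of -2.53 was -2.19 with a minimum of 200 counts, which leaves 1 gene, and -1.88 with none. The beta genes at least 2-fold lower were 12, 1 and 13 with minimums of 10, 200 and 0 counts, and 1 was higher with none. The gamma median of -0.57, over 2 genes, was -0.81 with no minimum. Lower gamma genes were 5 at 10 counts and 9 with no minimum, with 1 higher in each. With no minimum 2 alpha genes were lower and 1 higher. The alpha cluster has no median at 50 counts. By construction, the numbers of all genes at least 2-fold lower and higher, 1352 and 906, were 2821 and 1975 at 10 counts, 741 and 474 at 200 counts, 5887 and 5565 with no minimum, 250 and 252 at 4-fold, and 693 and 490 between 50 and 250 counts.

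Counts under 50 leave wide intervals for all alpha and most gamma genes.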
